A study of Mus musculus with 17 samples.

Results

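The genes described here are those of the type 2 cytokines and of the receptor chains that bind them. Il4, Il5, Il9 and Il13 encode the cytokines, and Il4ra, Il13ra1, Il13ra2, Il5ra and Csf2rb encode receptor chains. They were chosen by name and found by the gene symbol of their probe set, and all 9 were among the 19751 genes measured, each with 1 probe set. The arrays, Affymetrix Mouse Gene 1.0 ST, were hybridised with lung RNA of 17 Balb/c mice, each mouse on an array of its own.

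The anti-RGMb group held 6 mice that were sensitised and challenged with ovalbumin (OVA, an egg protein used as a model allergen) and treated with a monoclonal antibody to RGMb (labelled aRGMB mAb). RGMb is a membrane protein that binds neogenin and takes part in signalling by bone morphogenetic proteins. The isotype group held 5 mice that had the same OVA sensitisation and challenge and an isotype antibody. The saline group held 6 mice that had saline in place of OVA at both steps, and the labels name no antibody for them. No group had the anti-RGMb antibody without OVA, and no age or sex is given in the sources used here. Mice formed a pair of replicate sets: set 1 had 3 mice per group, named 1, 2 and 3, and set 2 had 3 anti-RGMb, 2 isotype and 3 saline mice, named 1-2, 2-2 and 3-2. Because the isotype mice enter 2 of the 3 comparisons, and so do the saline and the anti-RGMb mice, the comparisons are not independent of each other.

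IL-4, IL-5, IL-9 and IL-13 are made mainly by T helper 2 cells and group 2 innate lymphoid cells, and in the allergic lung they drive IgE production, eosinophil recruitment, mast cell growth, mucus production and airway hyperreactivity. IL-4 and IL-13 signal through receptors that share the chain IL-4Rα and activate STAT6, whereas IL-5 binds IL-5Rα and signals through the common beta chain encoded by Csf2rb, with activation of STAT5. IL-13Rα2 binds IL-13 tightly and is known mainly as a decoy receptor.

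The genes of 3 of the cytokines are neighbours. In GRCm38.p6 Il4 lies at chr11:53612460-53618665, Il13 at chr11:53631323-53634702 and Il5 at chr11:53720794-53725103, whereas Il9 lies at chr13:56479277-56482257. Windows of 250 bases just before the annotated gene start were available for 8 of the 9 genes from RefSeq, and Csf2rb was the gene without one. The windows below are those of the 3 neighbouring cytokine genes, of Il9, whose level did not follow theirs, and of Il13ra2, the gene of the decoy receptor, which was among the receptor genes that fell under anti-RGMb. They are written 5′ to 3′ on the strand of the gene. Capitals mark letters of the GATA motif (AGATAA, or with another last base AGATAG, and also the forms with another first base, which are TGATAA and, with both ends changed, TGATAG), bound by GATA3 and its relatives, or of the STAT6 motif (TTC and GAA separated by 4 bases), each searched on both strands. The windows are chr11:53618666-53618915 (minus strand) for Il4, chr11:53634703-53634952 (minus strand) for Il13, chr11:53720544-53720793 (plus strand) for Il5, chr13:56482258-56482507 (minus strand) for Il9 and chrX:147429193-147429442 (minus strand) for Il13ra2.
Il4: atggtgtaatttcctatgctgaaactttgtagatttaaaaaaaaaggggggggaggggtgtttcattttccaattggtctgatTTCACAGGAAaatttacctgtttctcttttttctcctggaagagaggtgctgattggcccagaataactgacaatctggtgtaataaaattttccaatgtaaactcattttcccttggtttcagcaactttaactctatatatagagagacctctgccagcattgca
Il13: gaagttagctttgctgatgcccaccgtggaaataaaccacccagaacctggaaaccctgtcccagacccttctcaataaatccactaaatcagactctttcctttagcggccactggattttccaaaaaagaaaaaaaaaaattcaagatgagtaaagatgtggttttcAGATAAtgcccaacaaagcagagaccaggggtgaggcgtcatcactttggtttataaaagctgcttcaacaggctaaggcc
Il5: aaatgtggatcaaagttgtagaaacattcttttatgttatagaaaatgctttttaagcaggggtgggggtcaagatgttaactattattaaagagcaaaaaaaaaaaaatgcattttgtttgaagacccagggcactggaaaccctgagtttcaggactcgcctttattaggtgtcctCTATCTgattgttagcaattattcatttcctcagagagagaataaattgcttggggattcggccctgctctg
Il9: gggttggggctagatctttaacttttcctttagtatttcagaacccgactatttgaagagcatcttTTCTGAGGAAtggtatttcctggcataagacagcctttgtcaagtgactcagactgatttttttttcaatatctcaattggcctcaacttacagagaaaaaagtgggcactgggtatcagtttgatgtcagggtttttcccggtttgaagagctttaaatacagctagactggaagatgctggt
Il13ra2: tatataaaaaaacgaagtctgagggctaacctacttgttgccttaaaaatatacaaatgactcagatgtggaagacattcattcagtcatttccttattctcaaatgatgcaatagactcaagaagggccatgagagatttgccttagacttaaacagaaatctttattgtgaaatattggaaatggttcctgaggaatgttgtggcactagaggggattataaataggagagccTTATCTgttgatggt

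Counted from the gene start, with -1 the last base before it, the Il4 window held the STAT6 letters TTCACAGGAA at -167 to -158 and the Il9 window held TTCTGAGGAA at -184 to -175. The Il13 window held AGATAA at -81 to -76, and the Il5 and Il13ra2 windows held a GATA motif on the opposite strand at -72 to -67 and at -15 to -10. The Il5ra window (not printed) also held AGATAA, at -74 to -69, so 4 of the 8 windows had a GATA motif and 2 had a STAT6 motif. Over all 32851 RefSeq windows of the same length, 26.54% held the GATA motif and 5.854% the STAT6 motif. The short motif GGAAA, the core of sites for NFAT, was in 7 of the 8 windows and in 55.57% of all windows, and in Il4 one of its copies overlapped the STAT6 letters. The windows of Il4ra and Il13ra1 held neither a GATA nor a STAT6 motif. These matches describe letters of the reference sequence.

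Arrays of set 2 were brighter than those of set 1 (median intensity 362.1 to 386.2 against 120.5 to 124.8), so levels are given below as log2 intensity minus the mean of the saline mice of the same set, where 1 unit is a doubling. Differences between groups come from a linear model with a term for the set, fitted to all 19751 genes with limma, and a gene passed the threshold at a Benjamini-Hochberg adjusted p under 0.05. The figure after ± is the standard error of a log2 difference, or an SD where marked so. In RNA of whole lung, fewer cells of a type and less RNA per cell cannot be told apart.

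Il13 and Il4 RNA was higher in isotype than in saline lungs and lower in anti-RGMb than in isotype lungs, Il5 followed at a smaller size, and Il9 did not pass in any comparison. On the receptor side, the IL-13 decoy chain Il13ra2 and both chains of the IL-5 receptor, Il5ra and Csf2rb, were higher in isotype than in saline lungs and lower in anti-RGMb than in isotype lungs, whereas Il4ra and Il13ra1, which together form the signalling receptor for IL-13, passed in no comparison. In isotype against saline lungs 6 of the 9 genes were higher, 3 cytokines and 3 receptor chains, and 0 were lower; over all genes 14.6% were called higher and 21.0% lower. In anti-RGMb against isotype lungs the same 6 genes were lower and 0 were higher, against 10.0% of all genes called lower and 11.1% called higher. In anti-RGMb against saline lungs Il5ra and Csf2rb were higher and the other 7 genes did not pass, against 4.26% of all genes called higher and 2.24% called lower. The median log2 difference of the 9 genes was 0.99 for isotype minus saline, against -0.04 for all genes. It was -0.54 for anti-RGMb minus isotype, against 0.03, and 0.18 for anti-RGMb minus saline, against -0.01.

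**Figure D1:**
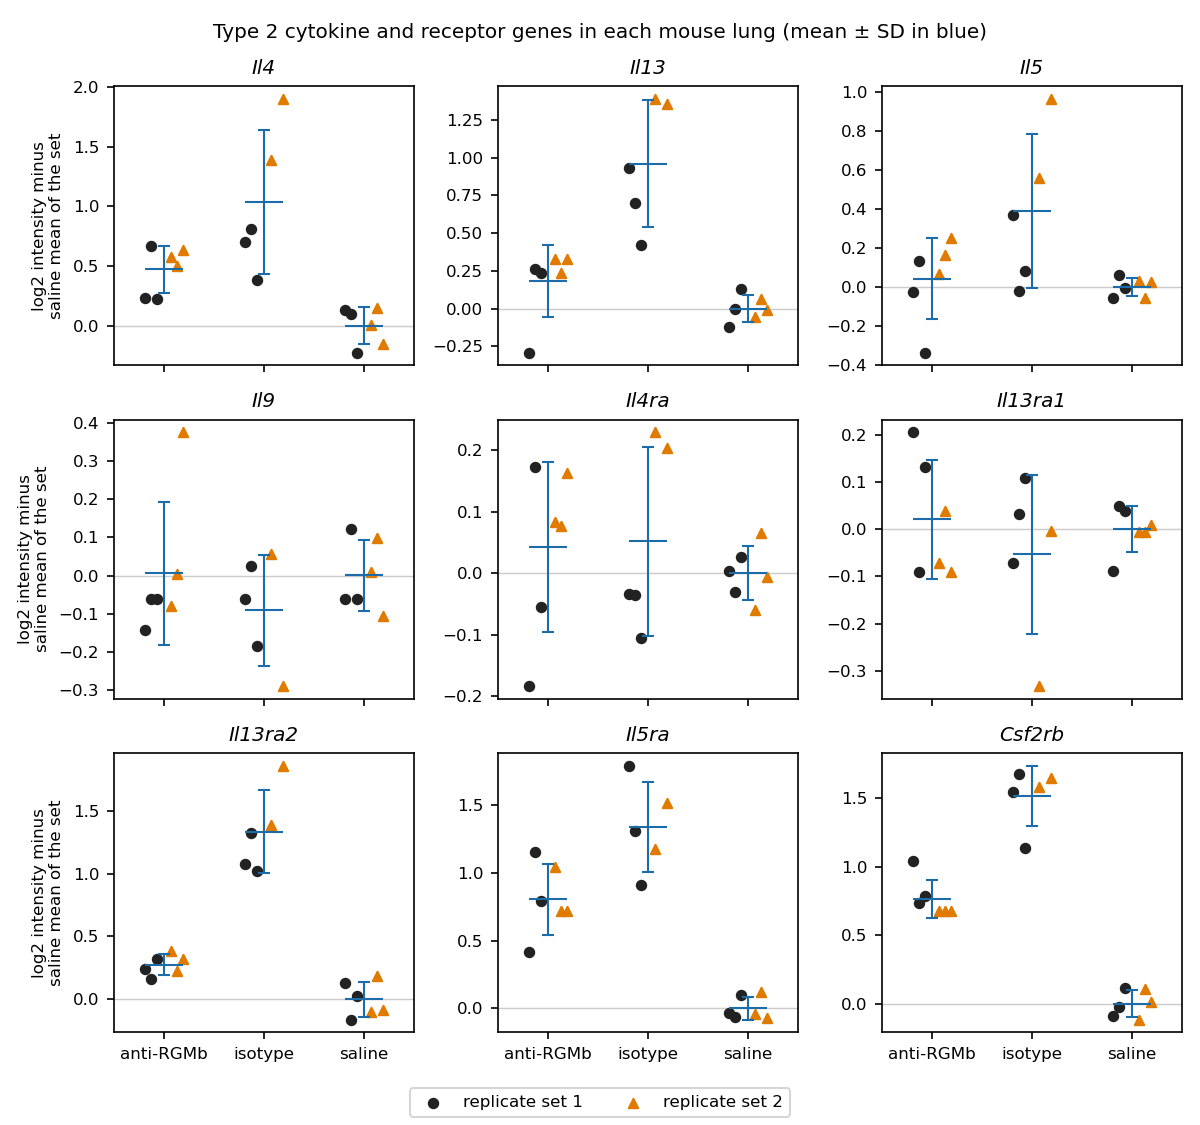
Log2 intensity minus the saline mean of the same replicate set (y axis) for each mouse of the anti-RGMb, isotype and saline groups (x axis), 1 panel per gene, with black circles for set 1, orange triangles for set 2 and the mean ± SD of each group in blue. The isotype mice stand above both other groups for Il13, Il13ra2 and Csf2rb, and the 3 groups overlap for Il9, Il4ra and Il13ra1.

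IL-13 acts on airway epithelium and smooth muscle, where it drives goblet cell change and hyperreactivity. The Il13 level was lowest at -0.29, median 0.25 and highest 0.33 in anti-RGMb mice, while the 5 isotype mice were at 0.93, 0.70, 0.42, 1.39 and 1.36 and the saline mice spanned -0.12 to 0.13 with a median of -0.01. Every isotype mouse was above every mouse of the other groups, and anti-RGMb and saline mice overlapped in set 1. Il13 was higher by 0.99 ± 0.13 in isotype than in saline lungs, or 1.98-fold (adjusted p = 6.68e-06), and lower in anti-RGMb than in isotype lungs by a log2 difference of -0.80 ± 0.13, or 0.572 times (adjusted p = 0.000207). Between anti-RGMb and saline lungs the difference was 0.18 ± 0.12 (adjusted p = 0.462), with a 95% confidence interval from -0.07 to 0.44. Mean log2 intensity in set 1 was 6.01 ± 0.31 in anti-RGMb, 6.62 ± 0.25 in isotype and 5.94 ± 0.13 in saline mice (SD, n = 3 each), and in set 2 it was 7.75 ± 0.06, 8.83 ± 0.02 and 7.45 ± 0.06 (SD, n = 3, 2 and 3 in that order). The order of the group means was isotype, anti-RGMb, saline. The last pair did not pass over both sets: anti-RGMb and saline mice overlapped in set 1, and in set 2 every anti-RGMb mouse was above every saline mouse (difference 0.30 ± 0.14, adjusted p = 0.317).

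IL-4 directs T helper 2 differentiation and the switch of B cells to IgE. Il4 levels in anti-RGMb mice ran from 0.22 to 0.67 with a median of 0.54. In the isotype mice they were 0.71, 0.81 and 0.38 in set 1 and 1.39 and 1.90 in set 2, and in saline mice they ran from -0.23 to 0.15 with a median of 0.05. Within each set every isotype mouse and every anti-RGMb mouse was above every saline mouse, and anti-RGMb and isotype mice overlapped in set 1 but not in set 2. Il4 was higher by 1.07 ± 0.17 in isotype than in saline lungs, or 2.11-fold (adjusted p = 5.17e-05), and changed by -0.60 ± 0.17 in anti-RGMb against isotype lungs, or 0.659 times (adjusted p = 0.0139). That fall was -0.41 with array weights (adjusted p = 0.0514) and -0.41 without isotype mouse 2-2 (adjusted p = 0.0488). The difference between anti-RGMb and saline lungs was 0.47 ± 0.16, with an interval from 0.14 to 0.81, and did not pass after adjustment (adjusted p = 0.0885), but it did in a fit of those groups alone (adjusted p = 0.00486). In 4 of the 6 saline mice the probe set was below the lower quartile of all genes on its array, so the size of the rise is uncertain.

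IL-5 is the growth and survival factor of eosinophils. Il5 levels ran from -0.34 to 0.25 with a median of 0.10 in anti-RGMb mice. The isotype mice were at 0.37, -0.02 and 0.08 in set 1 and at 0.56 and 0.97 in set 2, and saline mice lay between -0.06 and 0.06 with a median of 0.01. In set 1 the 3 groups overlapped, and in set 2 both isotype mice were above all others. Il5 was higher by 0.42 ± 0.11 in isotype than in saline lungs (adjusted p = 0.0079) and changed by -0.37 ± 0.11 in anti-RGMb against isotype lungs (adjusted p = 0.0258), with 0.04 ± 0.11 between anti-RGMb and saline lungs (adjusted p = 0.903). The fall under anti-RGMb passed in 12 of the 17 fits that leave out 1 mouse, and without isotype mouse 2-2 it was -0.25 (adjusted p = 0.099). The other fits in which it missed the threshold left out anti-RGMb mouse 3 or 1-2 or isotype mouse 1 or 1-2 (adjusted p = 0.0689, 0.053, 0.0587 and 0.0547 in that order). With array weights the rise in isotype lungs was 0.29 (adjusted p = 0.0545). The probe set was below the lower quartile of its array in all 17 mice.

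IL-9 promotes mast cell growth and mucus production. Il9 levels spanned -0.14 to 0.38 in anti-RGMb mice (median -0.06), -0.29 to 0.06 in isotype mice (median -0.06) and -0.11 to 0.12 in saline mice (median -0.03). The 3 groups overlapped in both sets. The differences were -0.09 ± 0.09 for isotype minus saline (adjusted p = 0.508), 0.09 ± 0.09 for anti-RGMb minus isotype (adjusted p = 0.511) and 0.01 ± 0.08 for anti-RGMb minus saline (adjusted p = 0.987). The interval of the isotype minus saline difference, -0.27 to 0.10, does not reach the size of the Il4 or Il13 rise. The probe set was below the lower quartile of its array in 9 of 17 mice, and a change in a low signal may not be detectable on these arrays.

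Among the receptors, IL-4Rα is the chain shared by the receptors for IL-4 and IL-13, and Il4ra lies at chr7:125552271-125579474. Il4ra levels ran from -0.18 to 0.17 in anti-RGMb mice (median 0.08), and the isotype mice were at -0.03, -0.03 and -0.11 in set 1 and at 0.23 and 0.20 in set 2. Saline mice ran from -0.06 to 0.07, with a median of 0.00. All 3 isotype mice of set 1 were below all saline mice of that set, and both isotype mice of set 2 were above theirs. The isotype minus saline difference was 0.06 ± 0.06 (adjusted p = 0.494), with an interval from -0.07 to 0.20. The difference was -0.02 ± 0.06 for anti-RGMb minus isotype (adjusted p = 0.851) and 0.04 ± 0.06 for anti-RGMb minus saline (adjusted p = 0.79). Within sets, isotype minus saline was -0.06 ± 0.08 in set 1 and 0.22 ± 0.09 in set 2, and the test of the difference between the sets gave an adjusted p of 0.404.

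Il13ra1, at chrX:36112108-36171262, encodes the chain that pairs with IL-4Rα to bind IL-13. Il13ra1 levels ran from -0.09 to 0.21 in anti-RGMb mice (median -0.02), from -0.33 to 0.11 in isotype mice (median 0.00) and from -0.09 to 0.05 in saline mice (median 0.00). The groups overlapped in both sets. The isotype minus saline difference was -0.06 ± 0.07 (adjusted p = 0.544, interval -0.21 to 0.08), and anti-RGMb minus isotype was 0.08 ± 0.07 (adjusted p = 0.439).

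Il13ra2, at chrX:147383478-147429192 on the same chromosome, is known as a gene that IL-13 and IL-4 induce. Its level ran from 0.16 to 0.39 in anti-RGMb mice with a median of 0.28. The isotype mice were at 1.08, 1.32 and 1.02 in set 1 and 1.38 and 1.86 in set 2, and the saline mice ran from -0.16 to 0.19 with a median of -0.03. Every isotype mouse was above every other mouse, and within each set every anti-RGMb mouse was above every saline mouse. Il13ra2 was higher by 1.35 ± 0.10 in isotype than in saline lungs, or 2.55-fold (adjusted p = 1.85e-08), and changed by -1.07 ± 0.10 in anti-RGMb against isotype lungs, or 0.475 times (adjusted p = 4.01e-06). The difference between anti-RGMb and saline lungs was 0.28 ± 0.10, with an interval from 0.07 to 0.49 (adjusted p = 0.114). The fit of those groups alone called it (adjusted p = 0.0155), and with 16 added to each intensity it was 0.13 (adjusted p = 0.46). The probe set was below the lower quartile of its array in all 17 mice, and with the same added constant the other differences became 0.74 for isotype minus saline and -0.61 for anti-RGMb minus isotype, both past the threshold.

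IL-5Rα is carried mainly by eosinophils, basophils and some B cells, and Il5ra lies at chr6:106710375-106749037. Il5ra levels in anti-RGMb mice ran from 0.42 to 1.15 with a median of 0.76. The isotype mice were at 1.79, 1.31 and 0.91 in set 1 and at 1.18 and 1.52 in set 2, and saline mice ran from -0.07 to 0.12 with a median of -0.04. All OVA-treated mice were above all saline mice, and anti-RGMb and isotype mice overlapped in set 1 but not in set 2. Il5ra was higher by 1.34 ± 0.14 in isotype than in saline lungs, or 2.54-fold (adjusted p = 5.15e-07), and changed by -0.54 ± 0.14 in anti-RGMb against isotype lungs, or 0.690 times (adjusted p = 0.00847). In anti-RGMb against saline lungs it was higher by 0.81 ± 0.13, or 1.75-fold (adjusted p = 0.00062). The 3 group means thus stood in the order isotype, anti-RGMb, saline, with every neighbouring pair past the threshold. All 6 saline mice were below the lower quartile of their arrays.

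The common beta chain, encoded by Csf2rb at chr15:78325800-78351001, carries the signal of IL-5, IL-3 and GM-CSF. Csf2rb levels in anti-RGMb mice ran from 0.68 to 1.04 with a median of 0.71. The isotype mice were at 1.55, 1.68 and 1.14 in set 1 and 1.58 and 1.65 in set 2, and saline mice ran from -0.12 to 0.12 with a median of -0.01. The 3 groups did not overlap, with isotype mice highest and saline mice lowest. Csf2rb was higher by 1.52 ± 0.09 in isotype than in saline lungs, or 2.86-fold (adjusted p = 9.05e-10), and changed by -0.75 ± 0.09 in anti-RGMb against isotype lungs, or 0.595 times (adjusted p = 2.46e-05). It was higher by 0.77 ± 0.09 in anti-RGMb than in saline lungs, or 1.70-fold (adjusted p = 1.51e-05). Mean log2 intensity was 9.50 ± 0.16 in anti-RGMb, 10.10 ± 0.28 in isotype and 8.65 ± 0.11 in saline mice of set 1 (SD, n = 3 each). In set 2 it was 11.3325 ± 5e-04, 12.27 ± 0.05 and 10.65 ± 0.11 (SD, n = 3, 2 and 3 in that order), with nearly tied values in the anti-RGMb mice. The mouse genome holds a near-identical neighbour, Csf2rb2, whose own probe set changed alike (1.56 ± 0.11 for isotype minus saline, -0.85 ± 0.11 for anti-RGMb minus isotype and 0.71 ± 0.10 for anti-RGMb minus saline), and how far the probe sets separate the 2 genes is uncertain.

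**Figure D2:**
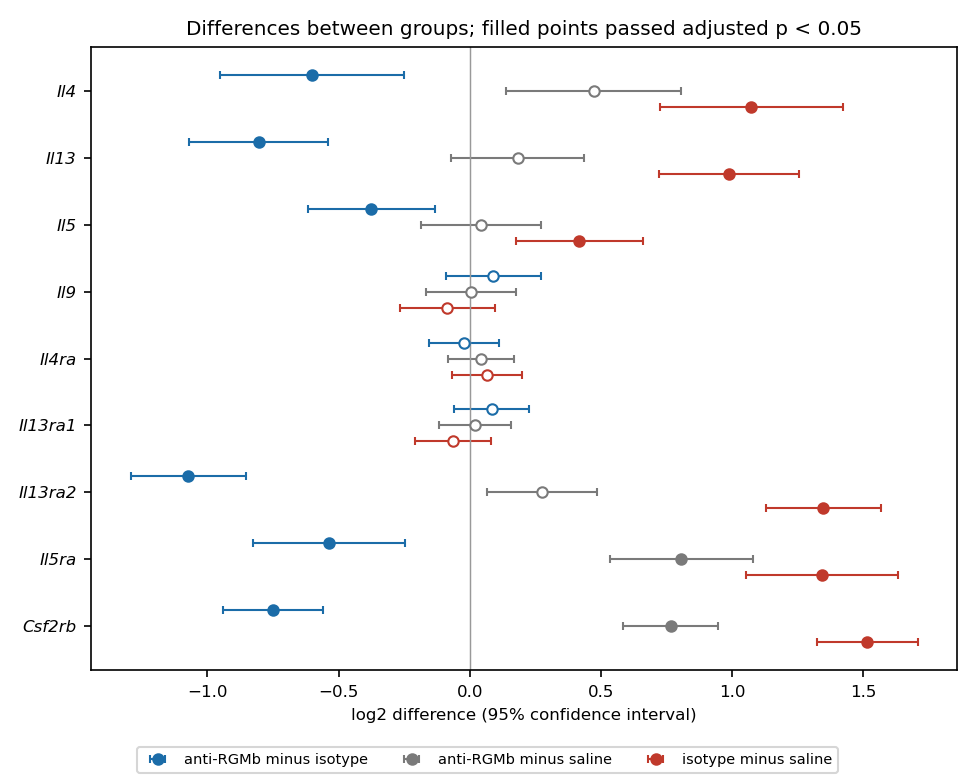
Log2 differences with 95% confidence intervals (x axis) of the 9 genes (y axis) for anti-RGMb minus isotype (blue), anti-RGMb minus saline (grey) and isotype minus saline (red), with filled points for adjusted p under 0.05. The blue points of Il13ra2 and Csf2rb lie at -1.07 and -0.75 and their red points at 1.35 and 1.52, where the Il13ra2 values rest on a dim probe set (-0.61 and 0.74 with 16 added to each intensity), and the intervals of Il9, Il4ra and Il13ra1 cross 0 throughout.

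Counting mice rather than fitting a model, isotype mice stood above saline mice with no overlap in both sets for 5 of the 9 genes, Il4, Il13, Il13ra2, Il5ra and Csf2rb, where 11.7% of all genes did. Anti-RGMb mice stood below isotype mice in both sets for Il13, Il13ra2 and Csf2rb, or 3 of 9, where 7.26% of all genes did. Anti-RGMb mice stood above saline mice in both sets for Il4, Il13ra2, Il5ra and Csf2rb, or 4 of 9, where 4.70% of all genes did.

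Within single sets the called genes kept their direction, and the test of whether the sizes differed between sets follows the values. In isotype against saline lungs 5 of the 9 genes were called higher in set 1, where 8.81% of all genes were, and 6 in set 2, where 13.7% were. In anti-RGMb against isotype lungs 3 were called lower in set 1 (3.13% of all genes), namely Il13, Il13ra2 and Csf2rb, and 5 in set 2 (11.3% of all genes). In anti-RGMb against saline lungs Il5ra and Csf2rb were called higher in set 1 (3.26% of all genes) and again in set 2 (2.65% of all genes). The isotype minus saline difference of Il4 was 0.63 ± 0.15 in set 1 and 1.65 ± 0.17 in set 2, and that of Il13 was 0.68 ± 0.14 and 1.38 ± 0.15. That of Il5 was 0.14 ± 0.12 in set 1 (adjusted p = 0.537) and 0.76 ± 0.14 in set 2 (adjusted p = 0.000511). The 2 sets gave nearly the same isotype minus saline difference for Il5ra, 1.34 ± 0.20 in set 1 and 1.35 ± 0.22 in set 2. For anti-RGMb minus isotype, Il4 differed by -0.26 ± 0.15 in set 1 (adjusted p = 0.44) and -1.08 ± 0.17 in set 2 (adjusted p = 0.000366), and Il13 by -0.62 ± 0.14 in set 1 and -1.08 ± 0.15 in set 2.

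The differences between sets were themselves tested, with limma, in a model with a mean for each group and set. No gene of the 9 passed for isotype minus saline (0.668% of all genes were called), for anti-RGMb minus isotype (0.471%) or for anti-RGMb minus saline (0.00%). The smallest adjusted p was 0.0625, for the isotype minus saline difference of Il4, larger by 1.01 ± 0.23 in set 2. At an unadjusted p under 0.05 there were 5 of 9 for isotype minus saline, 3 for anti-RGMb minus isotype and 0 for anti-RGMb minus saline. The share of all genes at that cut-off was not counted, so whether these counts are particular to the 9 genes is not known. With 16 added to each intensity 4 of the 27 tests passed, all for isotype minus saline (Il4, Il5, Il13 and Il13ra2). Leaving out isotype mouse 1-2 or 2-2 leaves a single isotype mouse in set 2, so no count is given for those fits. Without anti-RGMb mouse 2, Il4 passed for isotype minus saline.

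**Figure D3:**
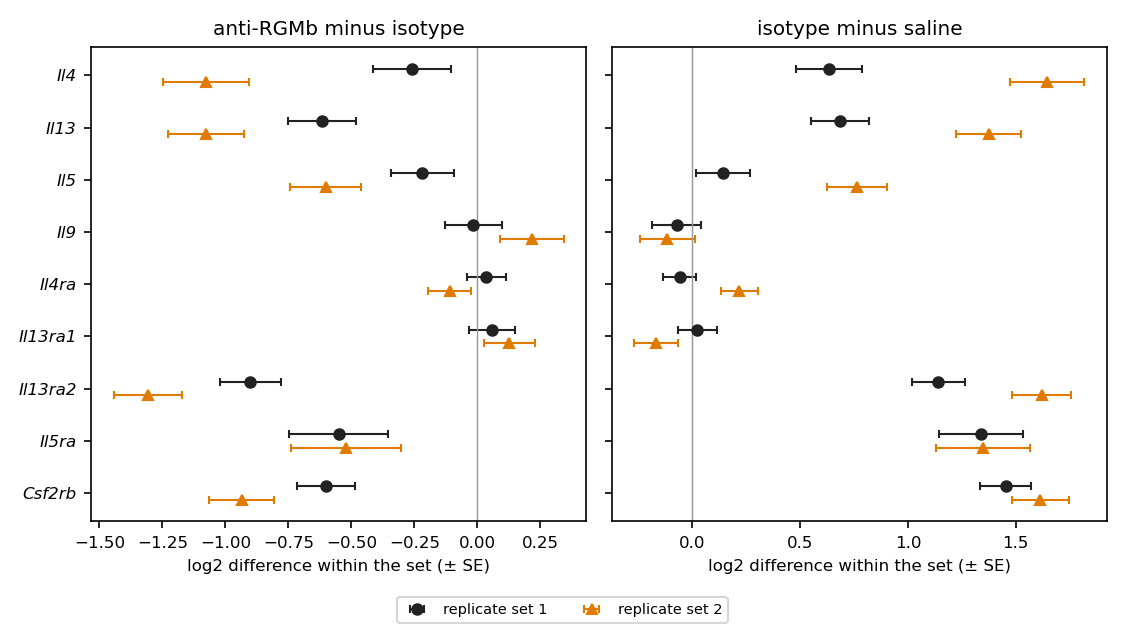
Log2 differences ± SE (x axis) of each gene (y axis) within set 1 (black circles) and set 2 (orange triangles), for anti-RGMb minus isotype on the left and isotype minus saline on the right. The cytokine points of set 2 lie farther from 0 than those of set 1 for Il4, Il13 and Il5, and the points of Il5ra nearly coincide, at 1.34 and 1.35 in the right panel.

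The neighbours of the cytokine genes on chromosome 11 were looked at next, over 16 genes that include Il4, Il5 and Il13. In isotype against saline lungs 5 of the 16 were higher, 4 lower and 7 not past, and in anti-RGMb against isotype lungs 2 were higher, 5 lower and 9 not past. Il4, Il5 and Il13 themselves were among the 5 higher and then among the 5 lower. Over all genes 14.6% were called higher and 21.0% lower in the first comparison, and 11.1% and 10.0% in the second. Between anti-RGMb and saline lungs the shares were 4.26% and 2.24%. The same shares apply to the counts of the lists below. In anti-RGMb against saline lungs 0 passed in limma, with 2 at an unadjusted p under 0.05, Il4 and Shroom1. Rad50, whose 3′ part holds the locus control region of the cytokine genes and which sits between Il13 and Il5, differed by -0.01 ± 0.05 for isotype minus saline (adjusted p = 0.908) and -0.04 ± 0.05 for anti-RGMb minus isotype (adjusted p = 0.656). Kif3a, on the other side of Il4, differed by -0.02 ± 0.07 and -0.05 ± 0.07 in the same comparisons. Rad50 and Kif3a were singled out for their position, after their values were seen. Farther out, P4ha2, a collagen prolyl hydroxylase gene 483.3 kb from Il13, was lower in isotype than in saline lungs (-0.37 ± 0.06, adjusted p = 9.93e-05) and higher in anti-RGMb than in isotype lungs (0.34 ± 0.06, adjusted p = 0.000664), and Uqcrq, a gene of mitochondrial complex III, went the opposite way (0.22 ± 0.06 and -0.24 ± 0.06). Shroom1 differed by -0.15 ± 0.04 for isotype minus saline and by -0.09 ± 0.04 for anti-RGMb minus saline (adjusted p = 0.22). Pdlim4, 429.0 kb from Il13 and named after its values were seen, moved in the direction of the cytokine genes. It differed by 0.42 ± 0.09 for isotype minus saline (adjusted p = 0.00129), the size of the Il5 rise. For anti-RGMb minus isotype it differed by -0.29 ± 0.09 (adjusted p = 0.0286).

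**Figure D4:**
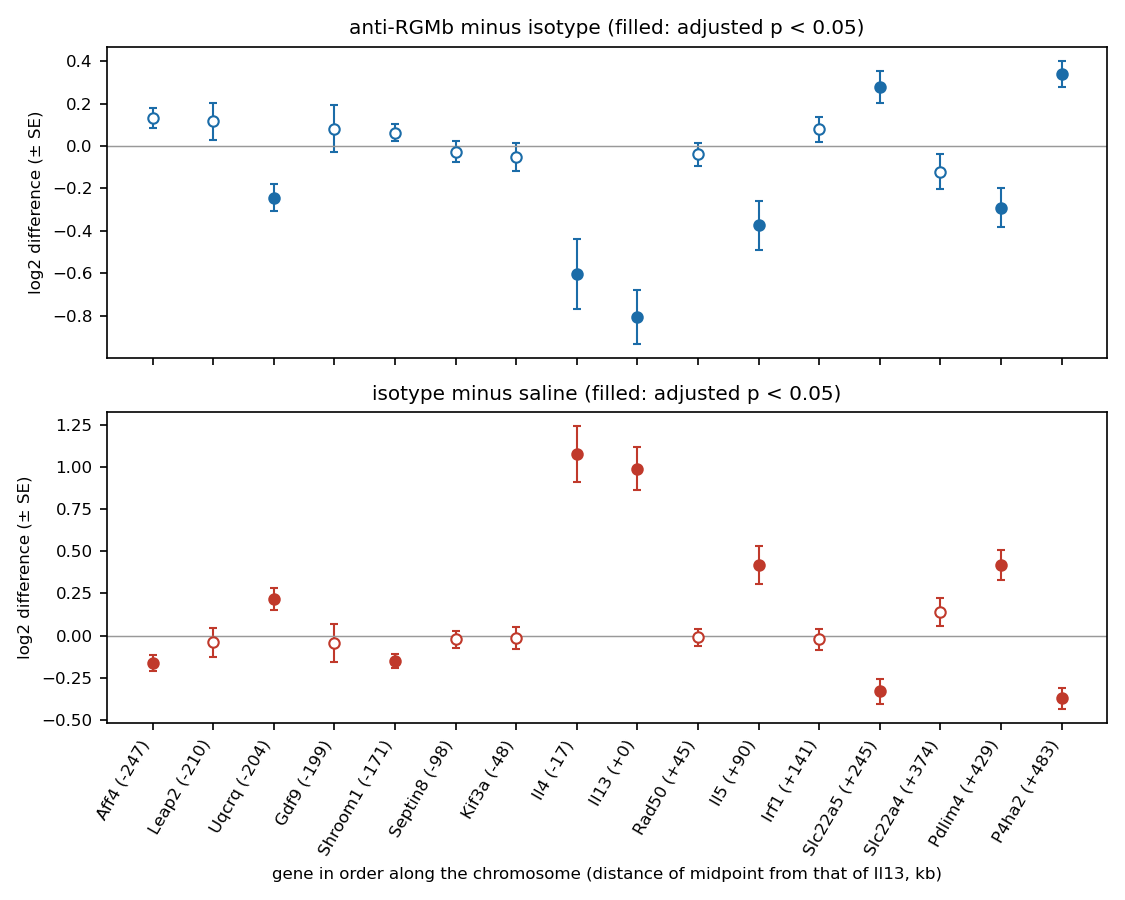
Log2 difference ± SE (y axis) of 16 genes in their order along the chromosome (x axis, with the distance in kb of each gene's midpoint from that of Il13), for anti-RGMb minus isotype above and isotype minus saline below, with filled points for adjusted p under 0.05. Il4, Il13 and Il5 stand apart from Kif3a and Rad50, which lie beside and between them near 0. Pdlim4, farther out, lies as far from 0 as Il5 in the lower panel, at 0.42.

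Chains that pair with these receptors, or belong to related ones, were measured as well. Of 5, 5 were higher in isotype than in saline lungs, 3 were lower in anti-RGMb than in isotype lungs and 2 were higher in anti-RGMb than in saline lungs, with medians of 1.16, -0.53 and 0.32. Csf2ra, the GM-CSF receptor alpha chain, differed by 1.21 ± 0.09 for isotype minus saline, -0.53 ± 0.09 for anti-RGMb minus isotype and 0.68 ± 0.08 for anti-RGMb minus saline (adjusted p = 7.73e-09, 0.000286 and 3.37e-05). Il21r, the IL-21 receptor, rose by 1.16 ± 0.17 in isotype lungs and changed by -0.84 ± 0.17 in anti-RGMb against isotype lungs. Il21r differed by 0.76 in set 1 and 1.71 in set 2, then by -0.31 and -1.52. Il9r, the IL-9 receptor chain, was higher in isotype than in saline lungs by 0.41 ± 0.08 (adjusted p = 0.000481), and the other differences, -0.20 ± 0.08 and 0.21 ± 0.08, did not pass. Il2rg, the common gamma chain, had no single-symbol probe set and was not analysed here.

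Of 8 partner and upstream cytokines, 3 were higher and 1 lower in isotype than in saline lungs, 3 were lower in anti-RGMb than in isotype lungs, and 0 passed between anti-RGMb and saline lungs in limma, also 0 at an unadjusted p under 0.05. Il33, the epithelial alarmin that activates group 2 innate lymphoid cells, differed by 1.19 ± 0.10 and -0.99 ± 0.10 in the first pair of comparisons (adjusted p = 5.93e-08 and 5.28e-06). Il21, a T helper cell cytokine, differed by 1.06 ± 0.15 and -0.78 ± 0.15, and Il10, an anti-inflammatory cytokine, by 0.62 ± 0.16 and -0.68 ± 0.16. Both were below the lower quartile of their arrays in all 6 saline mice, so these sizes are uncertain. Il10 differed by 0.18 in set 1 and 1.21 in set 2, then by -0.27 and -1.23. Il21 differed by 0.63 in set 1 and 1.62 in set 2, then by -0.43 and -1.25. Tslp, another epithelial alarmin and the 1 gene that fell in isotype lungs, was at -0.35 ± 0.12 (adjusted p = 0.0334). That difference was -0.07 in set 1 and -0.70 in set 2, and 2 of the 6 saline mice were below the lower quartile of their arrays. Tslp was named for its direction after its value was seen.

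Of 16 genes of JAK-STAT signalling and its feedback, 9 were higher and 3 lower in isotype than in saline lungs. Over all genes 14.6% were called higher and 21.0% lower. In anti-RGMb against isotype lungs 1 was higher and 6 were lower, and in anti-RGMb against saline lungs 2 were higher and 1 lower. Cish, a feedback inhibitor induced by STAT5, differed by 0.83 ± 0.07 for isotype minus saline, -0.36 ± 0.07 for anti-RGMb minus isotype and 0.47 ± 0.07 for anti-RGMb minus saline (adjusted p = 5.63e-08, 0.00131 and 0.000162). Ptpn6, the phosphatase SHP-1 of blood cells, differed by 0.84 ± 0.09, -0.45 ± 0.09 and 0.39 ± 0.08 in the same order, and Irs1, an adaptor of the IL-4 and insulin receptors, by -0.58 ± 0.07, 0.29 ± 0.07 and -0.30 ± 0.07. Jak2, a kinase of the common beta chain, and Stat5a rose by 0.59 ± 0.08 and 0.44 ± 0.06 in isotype lungs and changed by -0.45 ± 0.08 and -0.31 ± 0.06 in anti-RGMb against isotype lungs. Stat6 itself, named after its values were seen, was at 0.02 ± 0.04, 0.03 ± 0.04 and 0.05 ± 0.04 in the 3 comparisons (adjusted p = 0.788, 0.681 and 0.597).

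**Figure D5:**
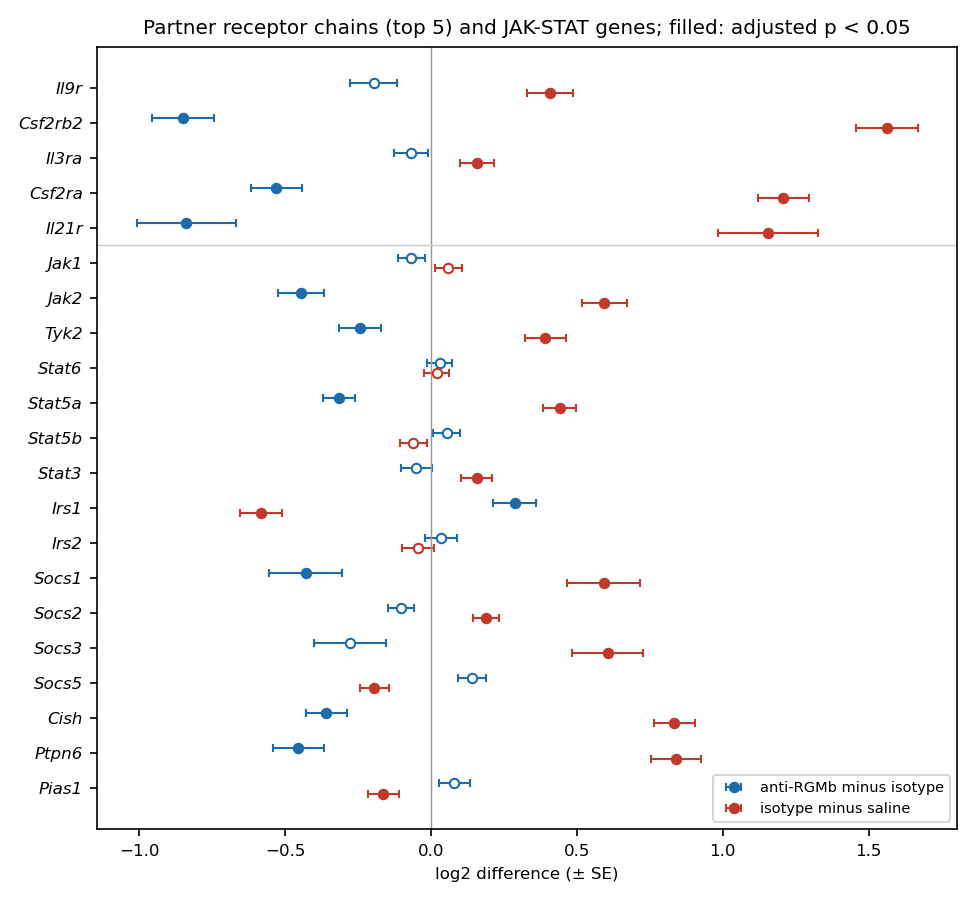
Log2 difference ± SE (x axis) of 5 partner receptor chains (upper rows) and 16 JAK-STAT genes (lower rows), for anti-RGMb minus isotype (blue) and isotype minus saline (red), with filled points for adjusted p under 0.05. Csf2rb2, Csf2ra and Il21r stand farthest from 0, Irs1 is the one gene past the threshold with the blue point on the right, at 0.29, and both points of Stat6 lie near 0.

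Of 18 transcription factors known to control these cytokine genes in T helper cells, 12 were higher and 2 lower in isotype than in saline lungs, 2 were higher and 8 lower in anti-RGMb than in isotype lungs, and 5 were higher in anti-RGMb than in saline lungs. Irf4 differed by 2.15 ± 0.09 between isotype and saline lungs, by -1.19 ± 0.09 between anti-RGMb and isotype lungs and by 0.96 ± 0.09 between anti-RGMb and saline lungs (adjusted p = 1.55e-11, 8.06e-07 and 9.8e-07). In the same order, Spi1, which encodes PU.1 of IL-9-producing T cells and of myeloid cells, differed by 1.22 ± 0.09, -0.60 ± 0.09 and 0.62 ± 0.09. Maf, an activator of Il4, differed by 0.76 ± 0.06, -0.37 ± 0.06 and 0.39 ± 0.06, and Bhlhe40 by 1.11 ± 0.09, -0.62 ± 0.09 and 0.50 ± 0.09. Gata3, the factor that defines type 2 lymphocytes and is named after its values were seen, was at -0.11 ± 0.06, 0.01 ± 0.06 and -0.10 ± 0.06 (adjusted p = 0.177, 0.934 and 0.37). Gata3 is also expressed by other cells of the lung, and RNA of whole lung does not tell which cells carried the RNA of any factor named here.

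Of 25 genes known to respond to IL-4 or IL-13 through STAT6, 22 were higher and 0 lower in isotype than in saline lungs (median 2.27), 13 were lower and 0 higher in anti-RGMb than in isotype lungs (median -0.51), and 18 were higher and 0 lower in anti-RGMb than in saline lungs (median 1.51). Pdcd1lg2, which encodes PD-L2, differed by 3.71 ± 0.15, -2.35 ± 0.15 and 1.36 ± 0.14 in these 3 comparisons. The eosinophil chemokine gene Ccl11 differed by 3.33 ± 0.14, -1.73 ± 0.14 and 1.60 ± 0.14, and the macrophage lectin gene Mrc1 by 1.63 ± 0.10, -0.96 ± 0.10 and 0.67 ± 0.09. Chil3 and Retnla, secreted products of alternatively activated macrophages, were 3.49 ± 0.19 and 4.13 ± 0.27 higher in anti-RGMb than in saline lungs (adjusted p = 1.91e-09 and 2.03e-08). Their anti-RGMb minus isotype differences, -0.47 ± 0.20 and -0.60 ± 0.28, did not pass (adjusted p = 0.108 and 0.151). Clec10a, a lectin of the same macrophages, passed in all 3 comparisons at 2.02 ± 0.09, -0.51 ± 0.09 and 1.51 ± 0.08. Lists of this kind were chosen with earlier results of these mice known, so their counts are no independent evidence of direction.

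Many markers of cells that make or receive these cytokines differed between the groups, but not all passed and not all went in the same direction. Their part in the differences above was not tested. The mean level of 10 T cell markers was -0.07 to 0.60 in anti-RGMb, 0.39 to 0.79 in isotype and -0.20 to 0.14 in saline mice, with 9 of 10 higher in isotype than in saline lungs and 6 lower in anti-RGMb than in isotype lungs. The anti-RGMb minus isotype difference of each T cell marker was more negative in set 2, which had 2 isotype mice. It was -0.16 in set 1 and -0.64 in set 2 for Cd3d, 0.00 and -0.54 for Cd3e, and -0.21 and -0.28 for Cd2. For 10 markers of type 2 lymphocytes the mean was 0.20 to 0.49 in anti-RGMb, 0.40 to 0.74 in isotype and -0.06 to 0.03 in saline mice, and 6 were higher and 2 lower in isotype than in saline lungs. In anti-RGMb against isotype lungs 4 of these were lower and 2 higher. Rora and Il18r1 were the 2 that were lower in the first comparison and higher in the second. For 11 markers of eosinophils, which carry IL-5Rα, the mean was 0.84 to 2.01 in anti-RGMb, 2.01 to 2.31 in isotype and -0.15 to 0.08 in saline mice. Of these, 10 were higher in isotype than in saline lungs, 6 lower in anti-RGMb than in isotype lungs and 8 higher in anti-RGMb than in saline lungs. Much of that mean came from Rnase2a, at 8.10 ± 0.41 for isotype minus saline against a list median of 1.77. Its probe set was below the lower quartile in all 6 saline mice. Prg2, Prg3, Ear6, Adgre4 and Gata1 did not pass for anti-RGMb minus isotype. Alox15 on this list is also a gene of alternatively activated macrophages.

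For 14 mast cell and basophil markers the mean was 0.19 to 0.61 in anti-RGMb, 0.38 to 1.39 in isotype and -0.06 to 0.09 in saline mice, with 10 higher and 2 lower in isotype than in saline lungs and 3 lower and 2 higher in anti-RGMb than in isotype lungs. For 9 B cell markers it was -0.09 to 0.18, 0.15 to 0.75 and -0.09 to 0.16 in anti-RGMb, isotype and saline mice, with 6 higher in isotype than in saline lungs and 7 lower in anti-RGMb than in isotype lungs. The anti-RGMb minus isotype difference of each B cell marker was also more negative in set 2, as for Cr2 (-0.17 in set 1 and -0.78 in set 2) and Cd79a (-0.25 and -0.46). For 11 markers of macrophages and monocytes, which carry the common beta chain, the mean was 0.98 to 1.27 in anti-RGMb, 1.62 to 2.00 in isotype and -0.18 to 0.13 in saline mice, with 10 higher in isotype than in saline lungs, 8 lower in anti-RGMb than in isotype lungs and 10 higher in anti-RGMb than in saline lungs. Among resident cells, 7 of 8 endothelial markers were lower and 1 was higher (Vwf, 0.29 ± 0.11, named for its direction after its value was seen) in isotype than in saline lungs, and 6 were higher and 0 lower in anti-RGMb than in isotype lungs. Of 10 epithelial markers 5 were lower and 0 higher in isotype than in saline lungs, and 3 were higher and 0 lower in anti-RGMb than in isotype lungs. Of 10 fibroblast and smooth muscle markers 3 were higher and 3 lower in isotype than in saline lungs, and 2 were higher and 2 lower in anti-RGMb than in isotype lungs. None of the 10 epithelial markers, which include Sftpc and Scgb1a1, was below the lower quartile in all mice of a group. The mean of 10 heart muscle markers was -1.23 to 0.92 in anti-RGMb, -1.62 to -0.31 in isotype and -0.48 to 0.92 in saline mice, with 8 lower in isotype than in saline lungs and 5 higher in anti-RGMb than in isotype lungs. Of 6 thymus markers 0 passed in any comparison in limma, with 1 at an unadjusted p under 0.05, for anti-RGMb minus isotype.

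Across the 17 arrays, after the mean of each set was subtracted, the levels of the 6 called genes went together, with Pearson's r from 0.63 (Il5 with Il5ra) to 0.92 (Il13 with Il13ra2), while Il9 had r from -0.34 to 0.14 with the other 8. The points share group and set, so these values describe the pattern of the groups as much as that of single mice. The genes most like each member were listed by the same r over all 19751 genes, as a description. Those most like Il4 were Susd1 (0.98), Hk3 (0.97), a hexokinase of myeloid cells, and Dctd (0.97). Those most like Il13 were Fxyd4 (0.98), the repressor gene Rest (0.97) and the protease gene Furin (0.97), and those most like Il5 were Slc27a4 (0.92), Abtb2 (0.92) and Pced1a (0.91). Those most like Il9 were Treh (0.96), Srrm4 (0.95) and Clrn1 (0.94).

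For the receptors, the genes most like Il13ra2 were Olfr111 (0.98), Chl1 (0.97) and 5031439G07Rik (0.97). Those most like Il5ra were Cacna1a (0.97), Gda (0.97) and Alox15 (0.97), a lipoxygenase of eosinophils and alternatively activated macrophages, and those most like Csf2rb were Nckap1l (0.99), an actin regulator of blood cells, Cyth4 (0.99) and the mitotic kinesin gene Kif2c (0.99). The values were lower for Il4ra, with Olfr1155 (0.84), Tssk4 (0.82) and the talin gene Tln1 (0.81), and for Il13ra1, with the chloride channel gene Cftr (0.88), Atl3 (0.86) and Rnf139 (0.86).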

How the data were processed

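Lung RNA of 17 mice was measured on 1 array each. The authors deposited linear intensity per probe set, computed with RMA per the submitters' processing notes (version not given in the sources used here). That the scale is linear was read from the size of the values, with array medians of 120.5 to 124.8 in set 1 and 362.1 to 386.2 in set 2. The lowest value was 3.02. The log2 of each deposited intensity was taken here, with no added constant. Probe sets with 1 gene symbol in the platform annotation were used (21354 of 24679, with 1275 naming several genes and 2050 none), and for the 893 genes with several such probe sets the brightest was kept.

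Groups came from the labels and replicate sets from the mouse names. limma 3.58.1 in R 4.3.3 fitted a mean per group and a fixed term for the set to 19751 genes, with moderated variances (prior degrees of freedom 4.32). A second model had a mean per group and set. Tests were two-sided, and p-values were adjusted by the method of Benjamini and Hochberg over all genes of a comparison. The fit was checked on simulated data. P-values set a difference against the spread between mice left after the terms of the model, pooled over all groups. With only a pair of replicate sets they say little about how differences would vary over further sets. The number of arrays limits the precision.

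Genes named are the 9 members, the 3 genes most like each by Pearson's r, and the 3 genes with the smallest p in each pathway list and comparison, with exceptions marked. The members and lists were chosen with earlier results of these data known. Promoter windows and gene positions are from RefSeq, GRCm38.p6. Alternatives were the fit without the set term, the compared groups alone, a replicate block, other scalings, other probe set summaries, an added constant, a filter on dim genes, other variance settings, array weights and leaving out each mouse.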

Additional observations from a re-analysis of the deposited data

Results flagged for a closer look

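Of 27 groups of values (9 genes in 3 groups), 4 held a mouse far from the others of its group by Dixon's test at the 95% level. Chance flags about 1 in 20 groups if the values of a group share 1 normal distribution. Each group here joined both replicate sets, whose spreads can differ, so that rate may not hold. Values are log2 intensity minus the saline mean of the same set. Il9 was at 0.38 in anti-RGMb mouse 3-2, while the other anti-RGMb mice ran from -0.14 to 0.00. Il13 was at -0.29 in anti-RGMb mouse 1, against 0.23 to 0.33 in the others. Csf2rb was at 1.04 in anti-RGMb mouse 1, against 0.68 to 0.78 in the others. Csf2rb was at 1.14 in isotype mouse 3, against 1.55 to 1.68 in the other isotype mice. Some deposited values were tied or nearly tied, which lowers the spread within a group. Csf2rb had a log2 intensity of 11.3331, 11.3321 and 11.3321 in the anti-RGMb mice of set 2. Il9 had the same intensity, 44.469, in set 1 mice of all 3 groups.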

How the results depend on the processing

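The 6 genes called for isotype minus saline were 6 in each of the 17 fits that left out 1 mouse, and the 6 called for anti-RGMb minus isotype were 5 to 6, with Il5 the gene lost. The 2 called for anti-RGMb minus saline were 2 to 4 (3 without isotype mouse 3, which added Il4, and 4 without isotype mouse 2-2, which added Il4 and Il13ra2). They were 4 in the fit of only the 2 groups and 4 with array weights, which also added Il4 and Il13ra2. Calls in either direction also grew over all genes. They were 1284 in the main fit, 1502 without isotype mouse 3, 2009 with only the 2 groups and 2541 with array weights. Without a term for the replicate set the counts were 0, 0 and 0 (limma, with 3, 1 and 0 of the 9 genes at an unadjusted p under 0.05), and over all genes 35, 0 and 10 were called. The sets differ in array level and the isotype group has 1 mouse fewer in the brighter set, and that fit moved the median of all genes to -0.20 for isotype minus saline and to 0.19 for anti-RGMb minus isotype. With the dimmest 40% of genes left out, 3 of the 9 genes were tested (Il4ra, Il13ra1 and Csf2rb), and the counts were 1, 1 and 1. Over all genes kept in that fit 6294, 4135 and 1504 were called in either direction. The number of the 27 differences between sets that passed was 0, and 4 with 16 added to each intensity (smallest adjusted p = 0.0135). Fits of these differences without isotype mouse 1-2 or 2-2 are not counted, because a single isotype mouse then stands for set 2.

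With the mouse number as a replicate block the counts were 6, 5 and 2, and Il5 for anti-RGMb minus isotype was at -0.37 (adjusted p = 0.058). The labels do not say that mice with the same number share anything, so mice were treated as unpaired. Over 16 pairs their residuals correlated at -0.60 to 0.30, above 0.1 in 3. Residuals within a group and set sum to 0, which links these correlations, so they cannot show whether mice were paired. With array weights Il4 for anti-RGMb minus isotype was at -0.41 (adjusted p = 0.0514) and Il5 at -0.29 (adjusted p = 0.0818).

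Of the single-gene values, 664 kept direction and side of the threshold, 23 lost the call, 7 gained it and 17 changed sign, all 17 near 0 and without a call. Il4ra for isotype minus saline was -0.0947 without the set term. Il4ra for anti-RGMb minus isotype was 0.14 without the set term, 0.0292 with array weights and -0.0657 to 0.0165 over left-out mice. Il9 for anti-RGMb minus saline was -0.0316 with quantile normalization, -0.0112 with arrays centred on their median, -0.0418 with array weights and -0.0683 to 0.0377 over left-out mice. Over left-out mice, Il13ra1 ran from -0.096 to 0.003 for isotype minus saline and from -0.0087 to 0.0554 for anti-RGMb minus saline, and Il5 from -0.0049 to 0.0964 for anti-RGMb minus saline. Low signal limits Il5, Il13ra2, Il9 and, in saline mice, Il4 and Il5ra. Among the partner cytokines named, it also limits Il21 and Il10 in saline mice.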
